A study of Gallus gallus with 8 samples.

Results

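Heart transcripts were compared between Chahua and White Leghorn chicken embryos, which are treated here as the lowland breeds among the 4 sequenced. The comparison rests on the 2 libraries labelled Chahua and the 2 labelled White Leghorn (spelled White leghom in the labels), so on 4 of the 8 libraries. Every library was made from messenger RNA of the embryonic heart at 16 days of incubation, and no treatment is named for any of them. The remaining libraries, 2 of Linzhi Tibetan and 2 of Lhasa White, served to estimate the spread between libraries of 1 breed and to show on which side of a difference those breeds lay. The series pairs this sequencing with a search of chicken genomes for selection in highland populations. The labels give neither sex, heart chamber, altitude nor oxygen during incubation. They are also silent on whether a breed's libraries are separate embryos, so the p-values measure only how far these libraries spread. Transcripts of the female W chromosome, given below, differed within White Leghorn and within Lhasa White, so the spread there is not technical alone. Atrial transcripts, also given below, differed within Chahua and within Lhasa White, so the spread in both includes a difference in chamber transcripts. Whether the difference within Chahua lies between embryos is not given. Within Linzhi Tibetan the spread may be technical, which was not tested. There the summed red cell transcripts, described below, lay at 5225 and 19570 RPKM.

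By this age the chicken heart has its atria and ventricles and grows fast, while the embryo takes up oxygen through a membrane under the shell. Cells can make the cholesterol of their membranes themselves, through a chain of enzymes whose genes are switched on by a sterol sensor system when sterol is scarce. Chahua is an indigenous Chinese breed, and White Leghorn is the layer breed behind most white-egg production, with a long history of selection for egg output. The gene roles given below are mostly known from mammals.

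The 4 libraries held between 17245669 mapped reads in Chahua 1 and 20027198 in White Leghorn 1, recovered from the steps of the values. The values are RPKM, reads of a gene divided by its length and by the depth of its library. Heart muscle genes were high in all 4 libraries, with MYH15, the ventricular myosin heavy chain of birds, at 3351 and 4949 RPKM in Chahua and at 3622 and 3839 RPKM in White Leghorn. Of 14 listed liver genes with a row, 10 stayed under 1 RPKM in all 4 libraries. Among the rest, APOA1 lay at 136 and 302 RPKM in Chahua and at 137 and 70.5 RPKM in White Leghorn. The libraries were not alike in sex or chamber. The W chromosome of birds is carried by females. Its gene ATP5A1W was at 445 RPKM in Chahua 1, 496 RPKM in Chahua 2 and 409 RPKM in White Leghorn 1, but at 0.241 RPKM in White Leghorn 2. In the 2 libraries of Lhasa White it was at 4.02 and 398 RPKM. MYH7, an atrial myosin in the chicken, lay at 115 RPKM in Chahua 2 and between 1.03 and 3.56 RPKM in the other libraries of the comparison. Of these 4, Chahua 2 was thus the library with atrial transcripts, and White Leghorn 2 the library without W-linked ones. Lhasa White 2, which is part of the fit, held more, with MYH7 at 1457 RPKM against 7.07 RPKM in Lhasa White 1. The spread that limma used therefore includes this difference in chamber transcripts. Across the genes tested, Chahua 1 and Chahua 2 correlated with r = 0.955 on the log2 scale, Chahua 1 and White Leghorn 1 with r = 0.979, and the White Leghorn libraries with r = 0.983, where genes are not independent replicates. The median absolute log2 difference per gene was 0.32 between the Chahua libraries, 0.11 between the White Leghorn libraries and 0.19 between Chahua 1 and White Leghorn 1. Chahua 1 was therefore closer to White Leghorn 1 than to the other Chahua library. For this reason each difference is set beside that of Chahua 1 and White Leghorn 1, which both held W-linked and lacked atrial transcripts and are called the matched pair here. The matched pair is part of the fitted comparison and is no independent test of it. In such bulk libraries, fewer cells of a type and less RNA per cell cannot be told apart.

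**Figure D1:**
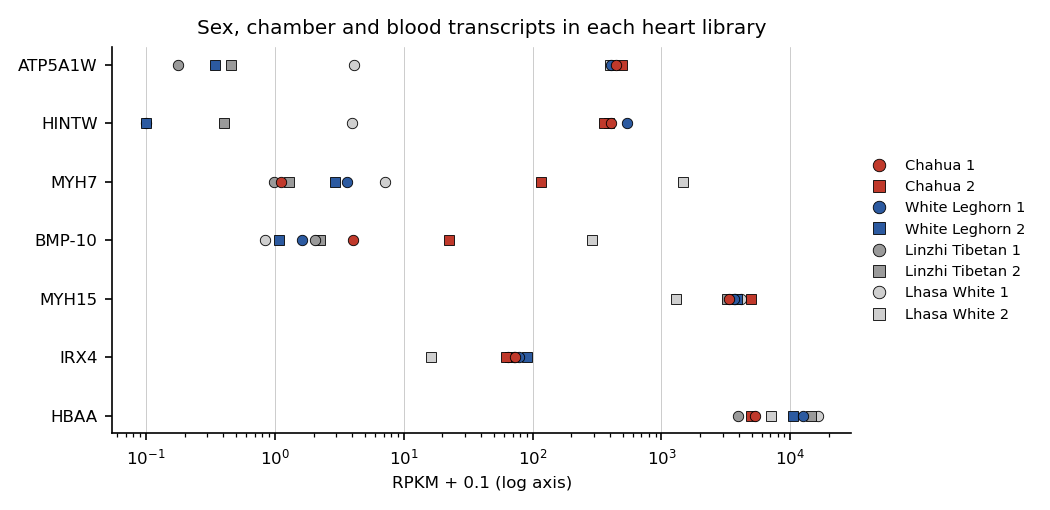
RPKM plus 0.1 on a log axis in each of the 8 libraries, for W-linked genes (ATP5A1W, HINTW), atrial (MYH7, BMP-10) and ventricular genes (MYH15, IRX4) and the alpha globin HBAA; colour gives the breed, circle and square the library. White Leghorn 2 lacks ATP5A1W at 0.241 RPKM, and Chahua 2 stands above the other libraries of its comparison in MYH7 at 115 RPKM.

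Genes were tested where they reached 1 RPKM in at least 2 of the 8 libraries, which left 11556 genes. None passed an adjusted p of 0.05 in limma in either direction, 0% of the genes tested. The smallest adjusted p was 0.119. At an unadjusted p under 0.05, 309 genes were higher in Chahua (2.67% of those tested) and 601 lower (5.20%), together 910 (7.87%). Voom on the recovered reads also gave 0 adjusted calls, with 296 and 561 genes at that unadjusted level. Under median ratio scaling of the libraries, the split at the unadjusted level was 402 higher and 470 lower. It moved most with single libraries: without Chahua 1 it was 1640 and 1134, without White Leghorn 1 it was 191 and 235, and without White Leghorn 2 it was 116 and 203. All 910 genes had the same sign in the matched pair, and 812 kept at least the fitted size divided by 2, against 7891 and 6078 of all 11556 genes. Since the pair is part of the fit that picked the 910, their shared sign is largely given by that choice. In the fit 48.1% of genes lay above 0, on the Chahua side, and in the matched pair 34.2% were higher in Chahua 1. Past 2-fold in the matched pair were 149 genes higher in Chahua 1 (1.29%) and 191 higher in White Leghorn 1 (1.65%). Both libraries of a breed lay above both of the other for 1976 genes in Chahua (17.1%) and for 3002 genes in White Leghorn (26.0%). The differences that follow are therefore differences between these 4 libraries, given with their spread.

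**Figure D2:**
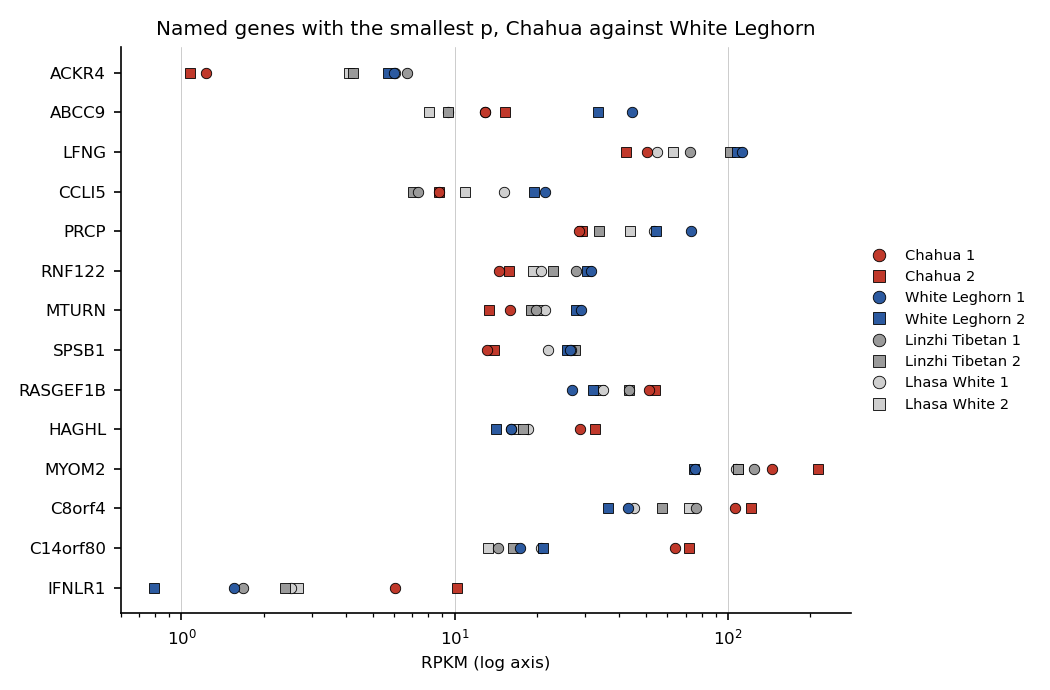
RPKM on a log axis in each of the 8 libraries for 14 of the 15 named genes with the lowest p between Chahua and White Leghorn, ordered by the fitted difference; colour gives the breed, circle and square the library. In each of the 14 genes the Chahua and White Leghorn libraries are apart, with limma adjusted p of 0.224 to 0.239.

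Among the 15 named genes of lowest p, 6 were higher in Chahua and 9 in White Leghorn. The lowest p was that of C14orf80 (ENSGALG00000027492), an open reading frame named after its human counterpart. It lay at 64.0 and 71.8 RPKM in Chahua and at 17.3 and 21.1 RPKM in White Leghorn. The other breeds, at 13.3 to 20.7 RPKM, lay near White Leghorn, so Chahua stood alone above all other libraries. The fitted log2 difference on the log2(RPKM + 1) scale was 1.77 (SE 0.219, limma adjusted p = 0.224), and in the matched pair it was 1.83. IFNLR1, a chain of the receptor for type III interferons, lay at 6.06 and 10.2 RPKM in Chahua and at 1.55 and 0.793 RPKM in White Leghorn. The other breeds lay in the gap between them, at 1.68 to 2.66 RPKM. Its mean was 6.95-fold higher in Chahua, and it differed by 2.06 on the log2 scale (SE 0.297, limma adjusted p = 0.224). MYOM2, an M-band protein that ties myosin filaments together, was at 145 and 214 RPKM in Chahua against 75.9 and 74.9 RPKM in White Leghorn, again with the other breeds between them at 107 to 124 RPKM. C8orf4, a small regulator of Wnt signalling, lay at 106 and 121 RPKM against 43.1 and 36.3 RPKM. HAGHL, a relative of a glyoxalase enzyme, and RASGEF1B, an exchange factor for small Ras-family proteins, had log2 differences of 0.98 and 0.83.

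Among the genes higher in White Leghorn were ABCC9, described with the potassium channels, and LFNG and ACKR4. LFNG, the fringe enzyme that adds sugars to Notch receptors, lay at 50.6 and 42.4 RPKM in Chahua and at 112 and 108 RPKM in White Leghorn, differing by -1.23 on the log2 scale (SE 0.187, limma adjusted p = 0.224). All 4 libraries of the other breeds lay between, at 54.9 to 102 RPKM. ACKR4, a scavenging receptor for chemokines, lay at 1.23 and 1.07 RPKM in Chahua, from 43 reads in each library, and at 5.98 and 5.69 RPKM in White Leghorn, from 243 and 226 reads. Here the other breeds, at 4.09 to 6.69 RPKM, lay with White Leghorn. CCLI5, a chicken chemokine, was at 8.73 RPKM in both Chahua libraries and at 21.5 and 19.5 RPKM in White Leghorn. PRCP, a peptidase that cleaves angiotensins, lay at 28.6 and 29.1 RPKM against 73.2 and 54.7 RPKM. In RNF122, a RING finger ubiquitin ligase, SPSB1, an adaptor of another ubiquitin ligase, and MTURN, the maturin gene, the White Leghorn mean was 2.05-fold, 1.93-fold and 1.94-fold the Chahua mean. A fit to the libraries that held W-linked transcripts alone used both Chahua libraries, White Leghorn 1 and Lhasa White 2. It gave C14orf80 a log2 difference of 1.91, with 1 residual degree of freedom, which came from the Chahua libraries.

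Genes of cholesterol synthesis lay lower in Chahua than in White Leghorn along most of the pathway. The 26 tested genes of the list cover sterol synthesis and its control, and 5 of them fatty acid synthesis and desaturation. Of the 26, 21 were lower in Chahua, 14 of them at an unadjusted p under 0.05, and none was higher at that level. The background for the latter 2 counts was 5.20% and 2.67% of all genes. The median log2 difference was -0.56, against -0.01 over all genes, and in the matched pair 25 of the 26 were lower in Chahua 1, with a median of -0.52 against -0.10 over all genes. In that pair 6 of them were past 2-fold, against the 1.65% given above. No gene of the list passed the adjusted threshold. The list was chosen with earlier results of these data known, and its genes are not independent of each other.

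In the middle of the pathway all 3 genes that turn farnesyl diphosphate into lanosterol were lower in Chahua at an unadjusted p under 0.05, with a median log2 difference of -1.19. FDFT1, squalene synthase, lay at 6.46 and 6.66 RPKM in Chahua and at 14.1 and 12.5 RPKM in White Leghorn (log2 difference -0.92, SE 0.206, limma adjusted p = 0.413). SQLE, the oxygen-using squalene epoxidase, lay at 0.767 and 0.907 RPKM against 3.71 and 3.97 RPKM (log2 difference -1.40, limma adjusted p = 0.494). LSS, which closes the sterol rings, lay at 1.09 and 1.33 RPKM against 4.20 and 3.85 RPKM. These and the members named from here on in the pathway, other than FDFT1, were chosen after their values were seen. For SQLE and FDFT1 the White Leghorn libraries lay above all other 6. For LSS the Chahua libraries lay below all other 6.

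Of the 8 genes between lanosterol and cholesterol, 7 were lower in Chahua, 6 of them at an unadjusted p under 0.05. CYP51A1, the demethylase that begins this stretch, lay at 6.13 and 4.98 RPKM in Chahua and at 10.1 and 11.3 RPKM in White Leghorn. MSMO1, which removes further methyl groups, lay at 4.0 and 5.38 RPKM against 10.6 and 8.42 RPKM. DHCR7, which makes cholesterol from its 7-dehydro form, lay at 2.22 and 3.55 RPKM against 5.37 and 5.20 RPKM. The exception was EBP, a sterol isomerase, at 1.74 and 4.74 RPKM in Chahua and at 2.43 and 2.29 RPKM in White Leghorn, where the Chahua libraries lay on both sides.

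The 5 genes of the mevalonate steps were all lower in Chahua, with a smaller median of -0.49. PMVK, phosphomevalonate kinase, lay at 12.4 and 16.0 RPKM in Chahua and at 22.7 and 21.7 RPKM in White Leghorn. HMGCS1, a synthase of these steps and Z-linked by its symbol, lay at 14 and 22.9 RPKM against 20.6 and 20.2 RPKM. The HMGCS1 libraries overlapped, and its difference turned from -0.18 to 0.16 without Chahua 1.

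Among the regulators, SREBF2, the transcription factor that switches the pathway on, lay at 13.8 and 9.39 RPKM in Chahua and at 20.1 and 22.6 RPKM in White Leghorn. INSIG1, a brake on the pathway and itself a target of that factor, lay at 4.29 and 5.51 RPKM against 10.1 and 9.29 RPKM. Its relative INSIG2 went the other way, at 14.8 and 32.2 RPKM against 14.3 and 13 RPKM, and in the matched pair it differed by 0.05. Of the 5 listed genes of fatty acid synthesis and desaturation, 2 were lower and 3 higher in the fit, with a median of 0.05. In the matched pair all 5 were lower in Chahua 1, with a median of -0.21 against -0.10 over all genes. FASN, fatty acid synthase, lay at 7.10 and 9.82 RPKM in Chahua and at 9.14 and 8.47 RPKM in White Leghorn.

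**Figure D3:**
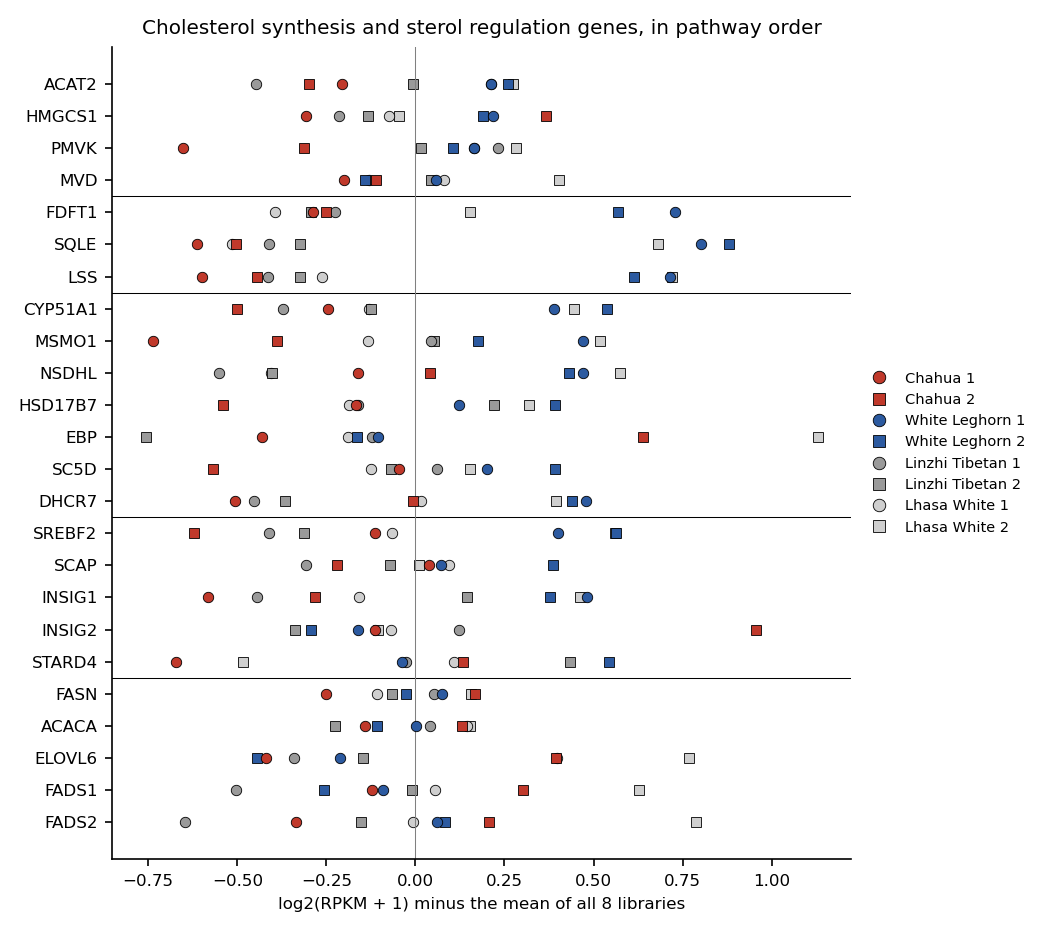
log2(RPKM + 1) minus the mean of all 8 libraries for 24 of the 26 genes of sterol synthesis, its regulation and fatty acid synthesis, in pathway order, with lines between the steps; colour gives the breed, circle and square the library. From FDFT1 to DHCR7 the White Leghorn points lie mostly to the right and the Chahua points to the left, and in the 5 genes at the bottom (FASN to FADS2) Chahua 1 lies to the left of White Leghorn 1 while Chahua 2 lies to the right of both White Leghorn libraries.

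By library, the mean over the 26 genes, relative to all 8 libraries, was -0.35 in Chahua 1, -0.10 in Chahua 2 and 0.26 in both White Leghorn libraries. The Linzhi Tibetan libraries had means of -0.24 and -0.12, those of Lhasa White -0.07 and 0.35. The difference was thus larger for Chahua 1, and Lhasa White 2, a library with atrial transcripts, lay above both White Leghorn libraries. The list median was -0.45 without Chahua 1, -0.55 without Chahua 2, -0.64 without White Leghorn 1 and -0.49 without White Leghorn 2. Over all genes the same fits gave 0.05, -0.09, -0.002 and -0.02. The number lower remained between 18 and 24 in these fits. In the fit to libraries with W-linked transcripts it was 22, with a median of -0.49, against -0.02 over all genes. Transcripts of red blood cells, described next, differed in the same direction, and their part in the sterol difference was not tested. In the other breeds their summed level was 5225 and 19570 RPKM in the Linzhi Tibetan libraries, with sterol means of -0.24 and -0.12. It was 22540 and 9564 RPKM in those of Lhasa White, with sterol means of -0.07 and 0.35.

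Blood transcripts were more abundant in White Leghorn. Summed over 16 listed red cell genes, the level was 7377 RPKM in Chahua 1, 7744 RPKM in Chahua 2, 17410 RPKM in White Leghorn 1 and 14700 RPKM in White Leghorn 2. The other breeds spanned both, from 5225 to 22540 RPKM. Of 15 genes tested, 14 were lower in Chahua, 11 without overlap (background 26.0%), and the median log2 difference was -0.63, or -0.76 in the matched pair. HBAA, an adult alpha globin, lay at 5341 and 4966 RPKM in Chahua and at 12607 and 10571 RPKM in White Leghorn (log2 difference -1.16, SE 0.618, limma adjusted p = 0.664). HBE1, an embryonic beta-type globin by its symbol, lay at 175 and 295 RPKM against 865 and 560 RPKM. The globins are near-identical copies in places, and how reads shared between them were counted is not given. HEMGN, a nuclear protein of red cell precursors and Z-linked, lay at 2.64 and 2.31 RPKM against 6.69 and 9.56 RPKM. It was the only 1 of the 15 at an unadjusted p under 0.05 (background 5.20% on its side). SLC4A1, the anion exchanger of the red cell membrane, lay at 36.3 and 40.8 RPKM against 69.1 and 77.4 RPKM. The number at the unadjusted level was 11 where only these 4 libraries were fitted, without the wide spread of blood transcripts in the other breeds. In that fit 580 of all 11556 genes were lower in Chahua at that level. HBE1 differed by -1.61 in the main fit (limma adjusted p = 0.6535). The fit to libraries with W-linked transcripts, which holds 1 White Leghorn library, gave -1.92.

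ATP-sensitive potassium channels open when ATP runs low and link the energy state of heart and vessel cells to their membrane potential. They pair a sulfonylurea receptor, ABCC9 or ABCC8, with a pore, KCNJ8 or KCNJ11. ABCC9 (ENSGALG00000013244) lay at 12.9 and 15.2 RPKM in Chahua, from 1587 and 2145 reads, and at 44.5 and 33.5 RPKM in White Leghorn, from 6359 and 4690 reads. The other breeds lay at 8.02 to 12.9 RPKM, so White Leghorn stood alone above all other libraries. The White Leghorn mean was 2.77-fold the Chahua mean, which is -1.40 on the log2 scale (SE 0.212, limma adjusted p = 0.224) and -1.71 in the matched pair. KCNJ8, the pore partner of ABCC9 in vessels, went the opposite way. It lay at 15.1 and 20.4 RPKM in Chahua and at 8.91 and 9.72 RPKM in White Leghorn, differing by 0.85 on the log2 scale (SE 0.208, limma adjusted p = 0.456) and by 0.70 in the matched pair. For KCNJ8 White Leghorn lay below all other 6 libraries, which spanned 10.004 to 15.2 RPKM in the other breeds.

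The second receptor and pore did not separate the breeds. ABCC8 lay at 18.9 and 14.9 RPKM in Chahua and at 20.9 and 18.6 RPKM in White Leghorn, and KCNJ11 at 3.80 and 1.64 RPKM against 3.39 and 3.07 RPKM. The libraries of both genes overlapped, and the sign of KCNJ11 turned from -0.25 to 0.19 without Chahua 2. The mean of ABCC9 in White Leghorn was thus above that of ABCC8 on the length-scaled RPKM values, while in Chahua the mean of ABCC8 was the higher, with ABCC9 at 12.9 against 18.9 RPKM in Chahua 1 and at 15.2 against 14.9 RPKM in Chahua 2.

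**Figure D4:**
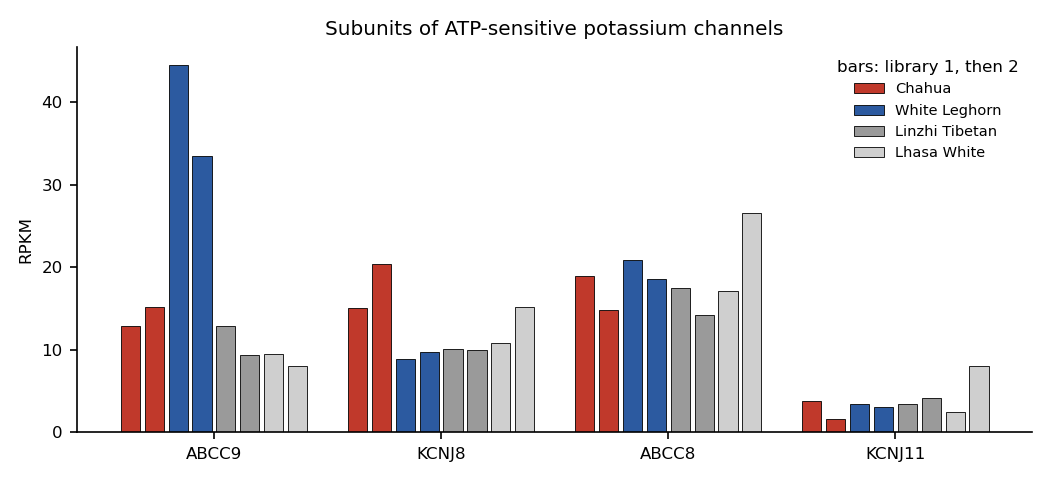
RPKM of the 4 subunits of ATP-sensitive potassium channels, with 1 bar per library in the order Chahua, White Leghorn, Linzhi Tibetan, Lhasa White. ABCC9 reaches 44.5 and 33.5 RPKM in White Leghorn and stays at or below 15.2 RPKM elsewhere, while KCNJ8 is lowest in White Leghorn, at 8.91 and 9.72 RPKM.

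Genes of the contractile apparatus stood highest in Chahua 2, with a list mean of 0.32 relative to all 8 libraries, against -0.07 in Chahua 1, -0.07 in White Leghorn 1 and -0.09 in White Leghorn 2. Of 33 sarcomere and Z-disc genes, 21 were higher and 12 lower in Chahua, 4 and 0 of them at an unadjusted p under 0.05 (background 2.67% and 5.20%), with a median of 0.14, against -0.01 over all genes. In the matched pair it was 0.02, against -0.10 over all genes. The list median was 0.31 without Chahua 1, -0.035 without Chahua 2, 0.13 without White Leghorn 1 and 0.17 without White Leghorn 2. Over all genes the same fits gave 0.05, -0.09, -0.002 and -0.02. The 4 genes at the unadjusted level in the main fit were MYOM2, NEXN, MYOZ2 and 1 of the 2 rows under the symbol MYL2. NEXN is a protein that steadies the Z-disc, and MYOZ2 a calcineurin-binding Z-disc protein. NEXN lay at 495 and 584 RPKM in Chahua and at 394 and 395 RPKM in White Leghorn (log2 difference 0.45, limma adjusted p = 0.574). MYOZ2 lay at 169 and 293 RPKM against 145 and 115 RPKM, with 0.22 in the matched pair against 0.78 in the fit. Of the troponins, TNNT2 lay at 7346 and 5817 RPKM in Chahua and at 7165 and 7192 RPKM in White Leghorn.

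Of 6 rows of ventricular genes, 5 were higher in Chahua, with a median of 0.15, but 2 of 6 in the matched pair, and their mean over the list was highest in Chahua 2 among the 4 libraries. BMP-10, a ligand of the atrial muscle of the growing heart, lay at 3.93 and 22.4 RPKM in Chahua and at 1.54 and 0.973 RPKM in White Leghorn. NPPA, the atrial natriuretic peptide, which embryonic ventricles make as well, lay at 2164 and 2419 RPKM against 1550 and 1286 RPKM (log2 difference 0.70, SE 0.179, limma adjusted p = 0.474). GJA5, the connexin of atrial muscle and of the conduction system, was the reverse, at 82.4 and 49.4 RPKM in Chahua and at 113 and 119 RPKM in White Leghorn. Of the 10 atrial genes tested, 6 were higher and 4 lower in Chahua. Of the 14 ion channel genes, KCNQ1, the pore of a repolarizing potassium current, lay at 6.55 and 7.07 RPKM against 4.57 and 4.52 RPKM. Of 18 calcium-handling genes, 13 were higher and 5 lower in Chahua, with a median of 0.21, or -0.05 in the matched pair. The one at an unadjusted p under 0.05 (background 5.20% on its side) was among the lower ones, ATP2B4, a calcium pump of the cell membrane, at 26.2 and 22.3 RPKM against 31.2 and 32.6 RPKM. Of 22 cardiac transcription factors, 12 were higher and 10 lower in Chahua, with 1 and 0 at the unadjusted level (background 2.67% and 5.20%).

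Fuel genes showed no common direction. Of 29 genes of glycolysis, lactate and pyruvate, 14 were higher and 15 lower in Chahua, with 2 and 3 at an unadjusted p under 0.05 (background 2.67% and 5.20%). HK2, the inducible hexokinase, lay at 8.89 and 7.42 RPKM in Chahua and at 5.21 and 4.24 RPKM in White Leghorn. PFKL, a phosphofructokinase, had the opposite order, at 19.0 and 17.3 RPKM against 28.0 and 37.2 RPKM, and so had PFKFB1, which makes its activator, at 0.966 and 1.58 RPKM against 3.54 and 6.28 RPKM. PDK4, a kinase that inhibits pyruvate dehydrogenase, lay at 83.3 and 156 RPKM against 43.6 and 37.8 RPKM. Of 29 genes of fatty acid uptake and oxidation, 13 were higher and 16 lower, with 3 and 1 at the unadjusted level, beside the same background. LPL, the lipase that frees fatty acids from blood lipoproteins and a Z-linked gene, lay at 86.0 and 114 RPKM in Chahua and at 56.4 and 64.5 RPKM in White Leghorn. PPARGC1A, a coactivator of mitochondrial genes, lay at 13.1 and 16.6 RPKM against 9.71 and 8.76 RPKM.

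The respiratory chain differed little in size. Of 46 nuclear subunit genes, 28 were higher in Chahua and 18 lower, none at an unadjusted p under 0.05, with a median of 0.04. In the matched pair 33 of 46 were higher in Chahua 1, with a median of 0.07, against 34.2% and -0.10 over all genes. In 15 of the 46 genes Chahua lay above White Leghorn without overlap and in 3 below (background 17.1% and 26.0%). SDHD, a membrane anchor of complex II, lay at 180 and 185 RPKM in Chahua and at 143 and 149 RPKM in White Leghorn. Ribosomal protein genes depended on the library, since 34 of 63 were higher in Chahua in the fit and 5 of 63 in the matched pair, where the median was -0.14 against -0.10 over all genes, of which 34.2% were higher. RPS20, of the small ribosomal subunit, lay at 1614 and 1466 RPKM in Chahua and at 2152 and 1926 RPKM in White Leghorn.

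Genes of oxygen sensing and of the response to low oxygen were compared because the series asks about hypoxia, although neither breed is a highland one. Of 16 sensing genes, 7 were higher and 9 lower in Chahua. EGLN1, the prolyl hydroxylase that marks HIF alpha subunits for destruction, lay at 22.3 and 26.1 RPKM in Chahua and at 18.0 and 18.8 RPKM in White Leghorn (log2 difference 0.37, SE 0.158, limma adjusted p = 0.632). HIF1AN, the asparagine hydroxylase of the same subunits, lay at 12 and 12.8 RPKM against 16.2 and 15.1 RPKM, with the other breeds between. Of 35 hypoxia-responsive genes, 20 were higher and 15 lower, with 5 and 2 at an unadjusted p under 0.05 (background 2.67% and 5.20%) and a median of 0.13. In the matched pair the median was 0.02, against -0.10 over all genes. The list median was 0.14 without Chahua 1, 0.02 without Chahua 2, 0.10 without White Leghorn 1 and 0.09 without White Leghorn 2. Over all genes the same fits gave 0.05, -0.09, -0.002 and -0.02. ADM, adrenomedullin, a peptide that widens vessels, lay at 21.3 and 37.7 RPKM in Chahua and at 12 and 12.9 RPKM in White Leghorn. BHLHE40, a repressor of the circadian clock that is induced by HIF, lay at 55.4 and 29.8 RPKM against 10.8 and 10.9 RPKM. EDN1, the vessel-narrowing endothelin, lay at 6.17 and 7.83 RPKM against 4.09 and 3.48 RPKM. The Chahua libraries lay above those of White Leghorn in all 3 genes, while the other breeds spanned 10.1 to 56.3 RPKM for ADM and 9.98 to 38.4 RPKM for BHLHE40.

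Of 38 genes of protection against oxidants, 16 were higher and 22 lower in Chahua, 4 of the latter at an unadjusted p under 0.05 (background 5.20%), with a median of -0.12. Without Chahua 1 the list was split 19 to 19, with a median of 0.02, against 0.05 over all genes. The list median was -0.17 without Chahua 2, -0.08 without White Leghorn 1 and -0.13 without White Leghorn 2. Over all genes these fits gave -0.09, -0.002 and -0.02. SOD1, the cytosolic superoxide dismutase, lay at 141 and 135 RPKM in Chahua and at 183 and 172 RPKM in White Leghorn. GSS, which completes glutathione, lay at 31.6 and 24.2 RPKM against 41.2 and 36.8 RPKM. In both genes Chahua lay below all other libraries. Of 40 heat shock and chaperone genes, 19 were higher and 21 lower, and HSP90AB1, a chaperone of signalling proteins, lay at 42.5 and 38.0 RPKM against 55.5 and 60.2 RPKM. Of 20 immediate early genes, 11 were higher and 9 lower in Chahua.

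Cell cycle genes were mostly lower in Chahua, and most so in Chahua 2. Of 45 genes, 42 were lower in Chahua, 11 at an unadjusted p under 0.05 and 34 without overlap (background 5.20% and 26.0%), with a median of -0.38. Averaged over the list and set against all 8 libraries, Chahua 2 lay at -0.38 but Chahua 1 at 0.04, against 0.21 and 0.16 in White Leghorn. Without Chahua 2 the median was -0.17 and without Chahua 1 it was -0.62, against -0.09 and 0.05 over all genes in those fits. In the matched pair 41 of 45 were lower in Chahua 1, with a median of -0.19, against -0.10 over all genes. MCM5, a subunit of the replication helicase, lay at 38.5 and 19.3 RPKM in Chahua and at 52.2 and 51.9 RPKM in White Leghorn. AURKA, a kinase of the mitotic spindle, lay at 15.8 and 13.1 RPKM against 22.5 and 19.4 RPKM. The libraries also differed in chamber transcripts, high in Chahua 2, and the part of these in the cell cycle counts was not tested.

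Matrix genes were mostly higher in Chahua. Of 42 genes of fibroblasts and matrix, 33 were higher in Chahua, 23 without overlap (background 17.1%), with a median of 0.49, and 33 of 42 were higher in the matched pair, with a median of 0.25. At an unadjusted p under 0.05, 1 gene was higher in Chahua (background 2.67%). That count was 13 with the 4 compared libraries alone, where 443 of all 11556 genes were higher at that level. With presence of W-linked transcripts as a covariate, 25 of 42 were higher and the median was 0.12. TIMP3, an inhibitor of matrix proteases, lay at 16.5 and 18.8 RPKM in Chahua and at 10.5 and 9.73 RPKM in White Leghorn (log2 difference 0.75, SE 0.159, limma adjusted p = 0.362). PRRX1, a transcription factor of mesenchyme, lay at 11.6 and 10.6 RPKM against 4.56 and 2.50 RPKM. COL12A1, a collagen that decorates fibrils, lay at 8.25 and 3.41 RPKM against 0.789 and 0.822 RPKM. The other breeds spanned 0.910 to 16.5 RPKM for COL12A1. The upper end was Lhasa White 2, a library with atrial transcripts, and the remaining libraries of those breeds reached 1.93 RPKM. Lhasa White 2 also held the highest matrix mean of all 8 libraries, at 0.996. Among the laminins of basement membranes, LAMB3 was lower in Chahua, at 12.6 and 11.7 RPKM against 24.7 and 26.7 RPKM, and LAMA1 higher, at 3.79 and 2.93 RPKM against 1.21 and 1.87 RPKM.

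Vessel and nerve genes divided. Of 29 endothelial genes, 10 were higher and 19 lower in Chahua, with 2 and 4 at an unadjusted p under 0.05 (background 2.67% and 5.20%). CLDN5, the tight junction protein of endothelium, lay at 31.0 and 25.0 RPKM in Chahua and at 63.7 and 58.0 RPKM in White Leghorn, with the other breeds between, at 38.2 to 52.8 RPKM. It differed by -1.10 on the log2 scale (SE 0.186, limma adjusted p = 0.255). PROX1, which specifies lymphatic endothelium and is also made in heart muscle, lay at 6.64 and 16.2 RPKM against 4.72 and 3.80 RPKM. Of 16 smooth muscle and pericyte genes, 8 were higher and 8 lower, and RGS5, a pericyte regulator of G protein signals, lay at 59.5 and 59.8 RPKM against 42.0 and 39.9 RPKM. This list holds ABCC9 and KCNJ8 as well, and its median was 0.00 in the fit and 0.19 in the matched pair, where ABCC9 differed by -1.71. Of 15 nerve genes, 11 were higher in Chahua with a median of 0.60, but of 0.02 in the matched pair. TH, the first enzyme of catecholamine synthesis, lay at 2.99 and 2.52 RPKM in Chahua and at 0.806 and 0.570 RPKM in White Leghorn. The summed nerve level was 232.9 RPKM in Chahua 2 and 65.3 to 97.3 RPKM in the other 3 libraries.

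Of 22 genes of the growth hormone and IGF axis, 13 were higher and 9 lower in Chahua, with 1 and 1 at an unadjusted p under 0.05 (background 2.67% and 5.20%). IGFBP2 and IGFBP4 bind insulin-like growth factors in the fluid around cells. IGFBP4 lay at 41.6 and 43.6 RPKM in Chahua and at 14.4 and 14.3 RPKM in White Leghorn (log2 difference 1.51, SE 0.530, limma adjusted p = 0.576). IGFBP2 lay the other way, at 65.3 and 42.8 RPKM against 118 and 117 RPKM (log2 difference -1.14, SE 0.282, limma adjusted p = 0.456). The 2 libraries of White Leghorn were nearly equal in both genes, and the other breeds spanned 14.2 to 70.7 RPKM for IGFBP4 and 59.4 to 104 RPKM for IGFBP2. For IGFBP4 the upper end was Lhasa White 2, and the remaining libraries of those breeds reached 17.5 RPKM. GH, growth hormone, a pituitary product in the main, is not one of these 22 genes and was chosen after its values were seen. GH lay at 2.74 and 3.56 RPKM in Chahua, from 37 and 55 reads, and at 0 and 0.196 RPKM in White Leghorn, from 0 and 3 reads. Reads were found in all 4 libraries of the other breeds, at 0.671 to 4.53 RPKM. Of 23 genes of bone morphogenetic proteins, activins and their antagonists, 17 were higher and 6 lower in Chahua, with a median of 0.33. At an unadjusted p under 0.05 there were 3 and 2, beside the same background. In the matched pair 12 were higher and 11 lower, with a median of 0.07, against -0.10 over all genes. BMPR1B, a receptor for bone morphogenetic proteins, lay at 1.66 and 2.17 RPKM in Chahua and at 3.97 and 4.01 RPKM in White Leghorn. BMPER went the other way, at 1.17 and 1.41 RPKM against 0.484 and 0.257 RPKM. FGF1, a fibroblast growth factor of heart muscle, lay at 23.0 and 16.2 RPKM against 7.51 and 12.7 RPKM. Outside these lists, FNIP1, a partner of folliculin in nutrient sensing, lay at 12.1 and 13.5 RPKM against 3.64 and 3.41 RPKM (log2 difference 1.61, limma adjusted p = 0.313). It was chosen after its values were seen.

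Among the immune genes, GBP (ENSGALG00000026152), an interferon-induced guanylate-binding protein, lay at 18.8 and 15.3 RPKM in Chahua and at 10.6 and 9.17 RPKM in White Leghorn, differing by 0.72 on the log2 scale (SE 0.233, limma adjusted p = 0.574). The other breeds lay below both, at 0.895 to 4.43 RPKM. Of 20 interferon-induced genes, 9 were higher and 11 lower in Chahua. GBP was the only 1 of them at an unadjusted p under 0.05 (background 2.67% on its side). STAT2, which carries the interferon signal to the nucleus, lay at 5.11 and 5.94 RPKM against 7.55 and 7.84 RPKM. SIGIRR, a brake on the interleukin-1 receptor family, lay at 4.21 and 9.29 RPKM in Chahua, from 134 and 338 reads, and at 0.677 and 0.526 RPKM in White Leghorn, from 25 and 19 reads. SIGIRR was chosen after its values were seen. BLB1, a chain of the chicken class II antigen-presenting molecule, lay at 29.6 and 14.1 RPKM against 9.19 and 10.4 RPKM. ITGA2B, the platelet integrin that bird thrombocytes carry, lay at 4.92 and 6.16 RPKM against 2.54 and 2.89 RPKM.

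In 74 genes every Chahua library differed at least 2-fold from every White Leghorn library on the log2(RPKM + 1) scale. Chahua was the higher in 40 of them (0.346% of the genes tested) and White Leghorn in 34 (0.294%). They were chosen for that gap, so their differences are a description. Seen against the other 4 libraries, White Leghorn alone stood outside in 27 of these genes, above all others in 15 and below in 12. Chahua alone stood outside in 19, above in 11 and below in 8. In 10 genes the breeds lay at opposite ends, in 17 neither breed stood outside, and in ABCC9 both lay above the other breeds, Chahua 1 by a margin under the rounding used here. CSTA, a cystatin that blocks cathepsins, was of the opposite-ends kind, at 11.4 and 12.2 RPKM in Chahua, 62.7 and 30.3 RPKM in White Leghorn and 13.2 to 26.9 RPKM elsewhere. RASL11B, a small GTPase of the Ras family, lay at 36.3 and 31.5 RPKM in Chahua and at 118 and 150 RPKM in White Leghorn, with the other breeds at 68.6 to 165 RPKM, so that Chahua alone stood apart. In the main fit CSTA differed by -1.80 and RASL11B by -1.94 on the log2 scale (limma adjusted p = 0.289 and 0.298). The fit to libraries with W-linked transcripts, which holds 1 White Leghorn library, gave -2.32 and -1.78. FABP4, a fatty acid carrier of fat cells and vessels, lay at 2.21 and 5.46 RPKM in Chahua, from 18 and 51 reads, and at 0.106 and 0.108 RPKM in White Leghorn, from 1 read in each library. Since White Leghorn 2 lacked W-linked transcripts, Z-linked genes were counted apart. Of 457 Z-linked genes, 7 were higher and 18 lower in Chahua at an unadjusted p under 0.05, below the shares of 2.67% and 5.20% over all genes. Their median was -0.11 in the fit and -0.12 in the matched pair, against -0.01 and -0.10 over all genes. Within White Leghorn the Z-linked median was 0.31 higher in the library without W-linked transcripts.

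**Figure D5:**
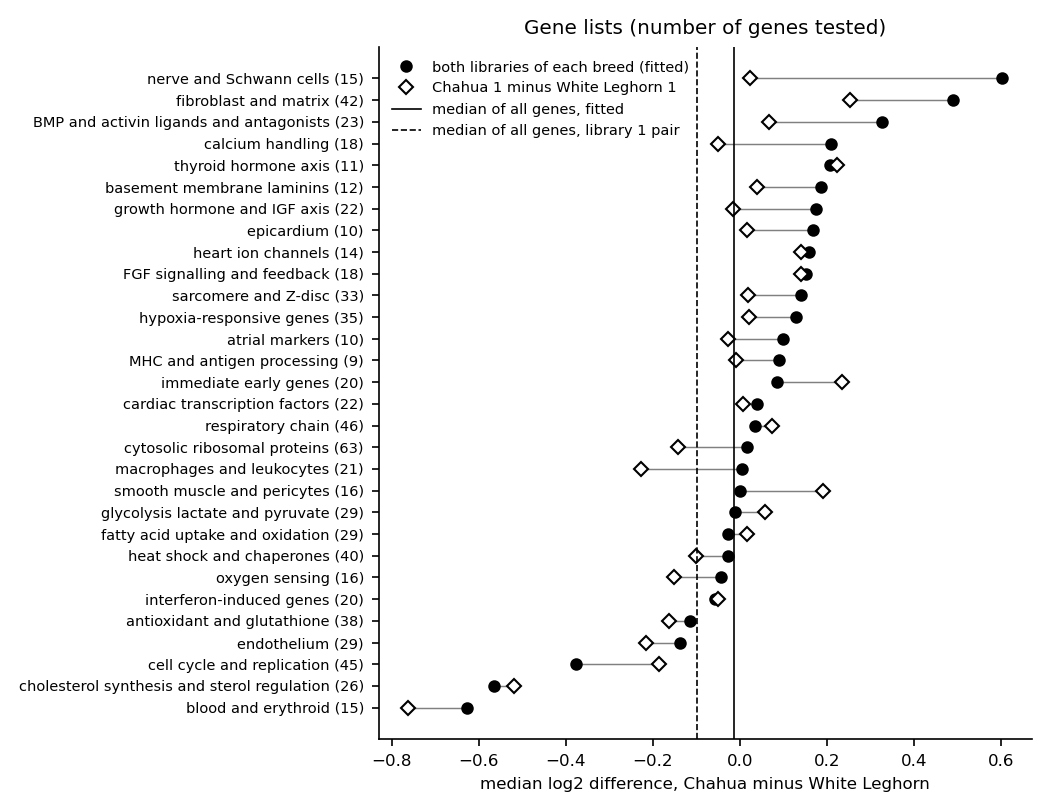
Median log2 difference, Chahua minus White Leghorn, for each gene list with at least 9 genes tested (number in brackets), from both libraries of each breed (filled circles) and from Chahua 1 and White Leghorn 1 alone (open diamonds); vertical lines give the medians of all genes. The blood list, at -0.63 and -0.76, and the sterol list, at -0.56 and -0.52, lie farthest to the left in both, while the nerve list moves from 0.60 to 0.02.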

How the data were processed

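Messenger RNA of embryonic hearts from 4 breeds was sequenced in 8 libraries, after TRIzol extraction and with Illumina's mRNA kit, per the labels' protocols. Per the file headers, the authors deposited RPKM values, by Ensembl identifier. The table has 15873 genes, 2730 of them without a symbol. BWA is named, with no version, per the submitters' processing notes. Genome build, gene models, counting, filters, strand and the treatment of reads shared between paralogs or overlapping genes were not given in the sources used here.

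Every value column was mapped to a sample by its title. Whole reads could be recovered from the RPKM steps for 99.99% of genes within a tolerance of 0.05 reads, with 17245669 to 22157553 mapped reads per library and a median of 455 reads per gene and library among the genes tested. More deeply covered genes are the more precise, and read numbers given beside a value carry counting error only. Genes with at least 1 RPKM in at least 2 of 8 libraries were transformed to log2(RPKM + 1), which understates differences of low genes. limma 3.58.1 under R 4.3.3 fitted 1 mean per breed over all 8 libraries, with empirical Bayes and a variance trend and 4 residual degrees of freedom, and tested Chahua minus White Leghorn, two-sided, with Benjamini-Hochberg adjustment over 11556 genes at 0.05. The fit was tested on simulated data, in which genes varied independently and shared no difference of sex or chamber. It recovered 46 of 100 genes changed 2-fold and 87 of 100 changed 4-fold, with 7 calls among unchanged genes. The changed genes were drawn only from those of higher mean RPKM, so these numbers do not cover low genes such as SQLE or GH. The spread of each gene was taken from the fit after empirical Bayes. For 12229 genes the symbol gave a chromosome in a GRCg7b table, whose coordinates were not used. Python 3.11.15 with NumPy 2.4.6, pandas 2.3.3 and matplotlib 3.10.9 served for the rest.

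The comparison, the lists and the rule for named genes were chosen with earlier results of these data known. The rule takes the 15 named genes of lowest p, up to 6 passing or 2 leading members of each list, ABCC9, GBP and C14orf80 with the other subunits of ATP-sensitive potassium channels, and the sex and chamber markers, and not every gene it takes is printed. The values of 2 genes are not reported here, although both are counted in totals. Lists were described by counts and medians, with no test. List members named beyond the leading 2 were chosen after their values were seen. Alternatives were other pseudocounts, filters, scalings, library subsets, covariates, a replicate block, voom and leaving out each library. A fit of Chahua 1 against White Leghorn 1, with the spread taken from the other breeds, was added after seeing the data.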

Additional observations from a re-analysis of the deposited data

How the results depend on the processing

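No gene passed in either direction under 21 of the 22 alternatives. The exception was the fit to libraries with W-linked transcripts alone, where 4 genes were higher and 6 lower in Chahua, from 1 residual degree of freedom and with 1 White Leghorn library, assumed to vary like the rest. The smallest limma adjusted p ranged from 0.0552 with no filter on low values to 1.0 in the added matched-pair fit, outside that exception. Numbers at an unadjusted p under 0.05, 910 in the main fit, were 379 in the fit with W-linked transcripts alone, 565 with the W covariate and 321 in the added matched-pair fit. When 1 library was left out, they ranged from 116 higher and 203 lower to 1640 higher and 1134 lower. Of 92 named genes followed through the alternatives, 2 reversed under some alternative. Most of the others were chosen with libraries that do not overlap, so that leaving out 1 library cannot turn them. Not every printed gene is among the 92, and some outside them turned. MYH7 differed by 1.87 in the main fit and by -1.17 in the matched pair, and MYH15 by 0.127 and -0.112. KCNJ11 reversed to 0.19 without the libraries with atrial transcripts and to 0.13 in the added matched-pair fit, and leaving out 1 library moved it from -0.68 to 0.19. HMGCS1 ranged from -0.51 to 0.16 when 1 library was left out, and the cause was not tested. The sterol median ranged from -0.69 to -0.36 and the blood median from -0.82 to -0.36 over the alternatives, the cell cycle median from -0.62 to -0.17 and the matrix median from 0.12 to 0.51. Same-numbered Chahua and White Leghorn libraries did not deviate together (r = -0.05), and over all pairs of breeds r ran from -0.33 to 0.17. Atrial transcripts differed within Chahua and W-linked ones within White Leghorn, so these values cannot tell whether the numbers pair the libraries. With the replicate block, 0 genes passed, 309 were higher and 527 lower at an unadjusted p under 0.05, and the smallest limma adjusted p was 0.335. With 2 libraries per breed, a sample far from the others cannot be told within a breed. Depth limits GH and FABP4, which rest on 0 to 3 reads in White Leghorn.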

Other observations

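Of 74 genes past 2-fold between every Chahua and every White Leghorn library, those below were chosen after their values were seen, and their gaps are a description. KCND3, the pore of a transient outward potassium current, lay at 4.50 and 3.02 RPKM in Chahua and at 0.695 and 1.01 RPKM in White Leghorn. AKR1D1, a reductase of bile acid and steroid hormone synthesis, lay at 12.2 and 28.2 RPKM against 4.56 and 4.70 RPKM. EMP1, an epithelial membrane protein, lay at 18.2 and 17.5 RPKM against 4.85 and 6.45 RPKM, and PCOLCE2, an enhancer of collagen processing, at 4.25 and 4.30 RPKM against 0.773 and 0.791 RPKM. In the other direction, PPP1R3B, which brings a phosphatase to glycogen, lay at 5.38 and 6.32 RPKM in Chahua and at 16.7 and 15.5 RPKM in White Leghorn. PRG4, the lubricant proteoglycan of joints and serous surfaces, lay at 6.88 and 11.04 RPKM against 33.9 and 25.9 RPKM. DNER, a Notch ligand, lay at 6.57 and 1.80 RPKM against 22.4 and 20.03 RPKM, on the same side as LFNG. The other breeds spanned 0.644 to 5.02 RPKM for KCND3, 7.06 to 27.5 RPKM for AKR1D1 and 6.70 to 22.1 RPKM for EMP1. Their range was 1.58 to 11.3 RPKM for PCOLCE2 and 5.53 to 9.77 RPKM for PPP1R3B. For PRG4 it was 7.16 to 24.2 RPKM, and for DNER 4.86 to 18.1 RPKM. The upper end for AKR1D1, PCOLCE2 and PRG4 was Lhasa White 2, a library with atrial transcripts. The remaining libraries of those breeds reached 10.7, 2.56 and 9.99 RPKM.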
